A study of Mus musculus with 6 samples.

Results

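The 35 genes described here encode the T cell receptor and its CD3 chains, the coreceptors and kinases of T cells, receptors of NK cells, and the granule proteins with which cytotoxic lymphocytes kill. They were taken by symbol from a table of 35275 genes. Of the 35, 34 were found, each with at least 1 read, and Trdc had no match by its symbol. The RNA came from tongues of Aim2 KO mice (3 libraries) and wild type mice (3 libraries). All had been given 4NQO (4-nitroquinoline 1-oxide), a carcinogen that produces squamous lesions of the oral lining, at 100 µg/ml in drinking water for 20 weeks, so no group without the carcinogen is compared here. Aim2 encodes a cytosolic DNA sensor that assembles an inflammasome. The labels give no strain, age or sex, no account of how the allele was made, and no word on whether each library is 1 mouse, so the spread between libraries may be technical in part. The library names share a number within each genotype that the other genotype lacks. What that number marks is not stated, and genotype cannot be told apart from it.

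A T cell recognises antigen with a receptor of 2 variable chains, alpha and beta or gamma and delta, held at the surface by the CD3 chains, which carry the signal inward. CD4 or CD8 brings the kinase Lck to the receptor, and Lck and Zap70 begin the signal. Activated CD8 T cells and NK cells deliver perforin and granzymes from granules into a target cell. In the tongue such cells lie in the epithelium and the connective tissue below it, and they can enter lesions. In bulk tissue, fewer cells of a type and less RNA per cell cannot be told apart.

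Values are FPKM, reads scaled by the length of the gene and the reads of the library, and are listed for replicates 1, 2 and 3 of a group in that order. The libraries held 21959204 to 25369400 reads. Because the values keep whole reads, the read number behind each level is known. At these depths most of the 34 genes were rare: 7 averaged at least 1 FPKM over the 6 libraries, 30 had at least 0.1 FPKM, and, depending on the library, 8 to 19 of them had under 10 reads. The tissue was as labelled, with all 10 keratinocyte markers and all 10 skeletal muscle markers averaging at least 1 FPKM (summed levels of 30918 to 40767 and 7438 to 14886 FPKM). Aim2 itself had 3, 4 and 10 reads in Aim2 KO and 14, 25 and 30 reads in wild type, lower in each Aim2 KO library than in any wild type library.

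By group means, 31 of the 34 genes were higher in Aim2 KO and 3 (Trbc2, Klrd1 and Fasl) were lower. The background was 56.9% of genes higher among the 22220 genes above 0 in at least 1 library. For 12 of the 34 every Aim2 KO library lay above every wild type library, namely Cd3e, Trac, Trbc1, Cd4, Lck, Cd2, Tcf7, Il7r, Foxp3, Il2ra, Gzmb and Klrb1c, where 4.78% of all these genes did so. In the opposite direction there were 0 of 34, against 2.03%. A ratio of group means of at least 2 was reached by 22 of the 34, against 6.05%. The median ratio was 2.52 over the 32 genes above 0 in wild type, beside 1.02 over all genes. None of the 34 passed the test across all genes in the 3 fits that follow. Of the 7 genes at 1 FPKM or more on average, limma called 0 at an adjusted p of 0.05, where 0.00823% of the 12144 genes tested were called higher and 0.0% lower, and 2 of the 7 had an unadjusted p under 0.05, beside 2.5% of all genes. In that filtered set 6 of 7 log2 differences were positive (57.2% of all genes), 4 of 7 genes did not overlap and were higher (4.98%), and 0 of 7 did so and were lower (1.48%). With the filter lowered to 0.1 FPKM it called 0 of 30, with 10 of 30 at an unadjusted p under 0.05 (3.41% of 16604 genes). On the recovered reads limma's voom called 0 of 31, with 10 of 31 at an unadjusted p under 0.05 (3.15% of 18001 genes, of which 0.00556% were called higher). Trac, Trbc1 and Cd2 reached the higher filter only through the Aim2 KO libraries.

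**Figure D1:**
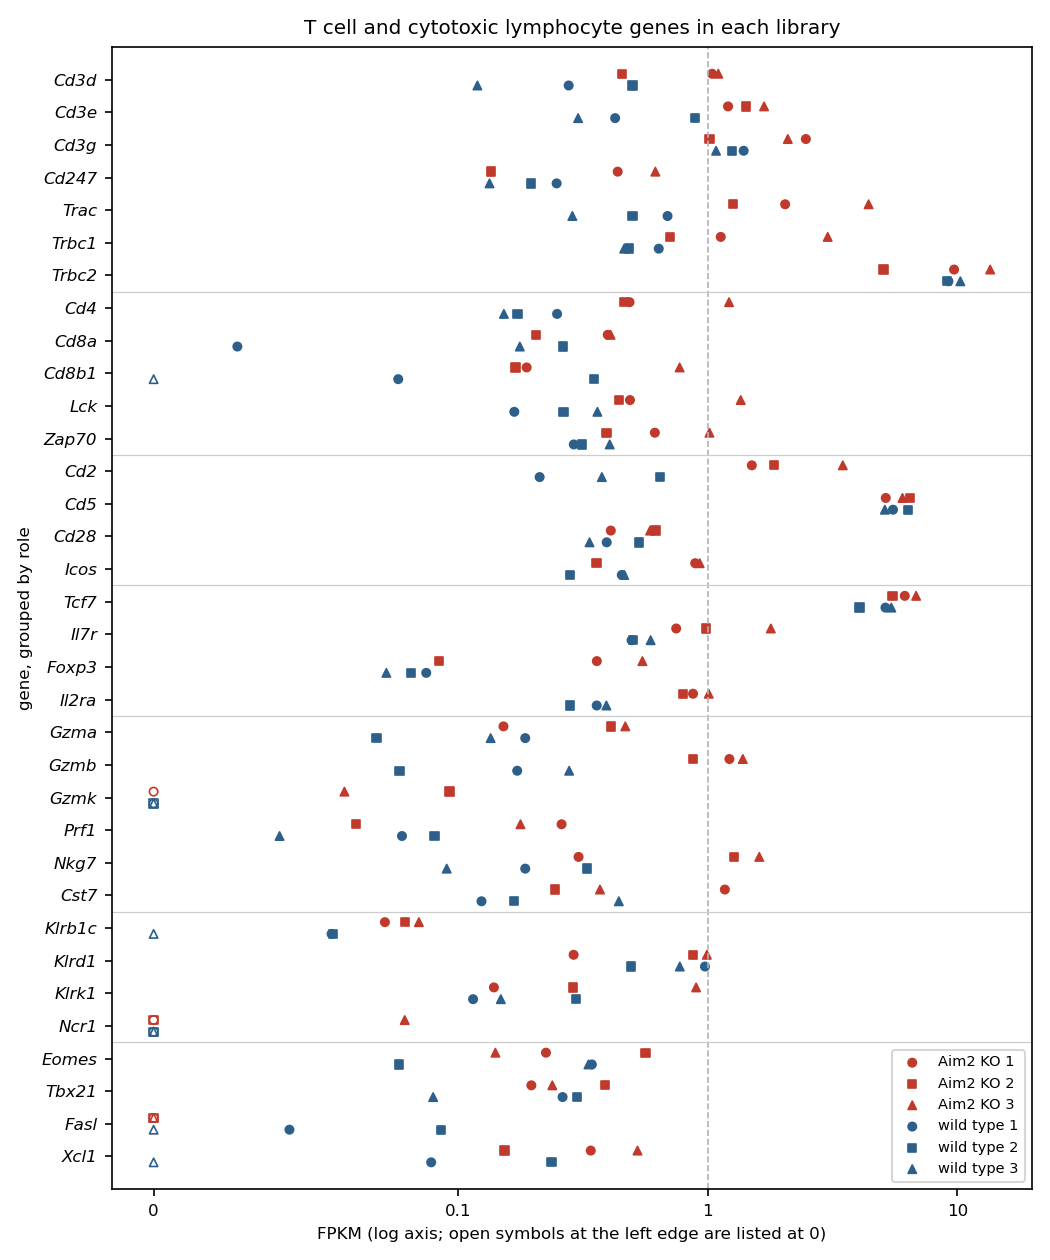
FPKM on a log axis for each of the 34 genes in each library, with Aim2 KO in red and wild type in blue, replicates 1 to 3 as circle, square and triangle, and horizontal lines between the role groups. Most genes lie under 1 FPKM (dashed line), Trbc2, Cd5 and Tcf7 lie far to the right of the others with their groups close together, and Aim2 KO replicate 3 (red triangle) is often the point farthest right.

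The CD3 chains were examined first, because every T cell needs them. Cd3d, Cd3e and Cd3g lie side by side on chromosome 9 and encode the delta, epsilon and gamma chains. The 250 bases before the start of each gene are shown here because these 3 neighbours had ratios of means from 1.50 to 2.90. They are printed on the gene's strand from RefSeq (GRCm38.p6), at chr9:44980432-44980681 for Cd3g on the minus strand, chr9:44981536-44981785 for Cd3d on the plus strand and chr9:45009612-45009861 for Cd3e on the minus strand. Capitals mark matches, on either strand, to any of 7 motifs searched, among them the ETS core AGGAAG, the E-box CAGGTG and the TCF motif CTTTGAT.
Cd3g: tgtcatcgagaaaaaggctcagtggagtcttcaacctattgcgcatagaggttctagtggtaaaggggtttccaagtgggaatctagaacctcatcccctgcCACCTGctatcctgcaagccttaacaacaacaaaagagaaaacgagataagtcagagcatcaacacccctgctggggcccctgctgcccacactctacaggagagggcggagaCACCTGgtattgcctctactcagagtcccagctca
Cd3d: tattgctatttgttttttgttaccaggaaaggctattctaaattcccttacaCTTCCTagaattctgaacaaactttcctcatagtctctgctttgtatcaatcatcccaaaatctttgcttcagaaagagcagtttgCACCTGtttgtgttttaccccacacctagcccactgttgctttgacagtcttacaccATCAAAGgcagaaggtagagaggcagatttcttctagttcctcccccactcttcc
Cd3e: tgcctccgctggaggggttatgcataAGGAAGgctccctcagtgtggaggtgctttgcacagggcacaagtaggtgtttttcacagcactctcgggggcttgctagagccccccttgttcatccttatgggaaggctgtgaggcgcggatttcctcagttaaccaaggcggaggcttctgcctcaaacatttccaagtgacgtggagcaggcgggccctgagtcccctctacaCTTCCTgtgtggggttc
The window of Cd3g holds CAGGTG and that of Cd3e AGGAAG, while that of Cd3d holds both and CTTTGAT. Of the 34 genes, 25 had promoter windows in the table, 31 windows in all. AGGAAG was present in 18 of the 31 (29.5% of all 32851 windows of the table), CAGGTG in 10 (17.2%) and CTTTGAT in 1, of Cd3d (3.21%). Of the other 4 motifs, the RUNX motif TGTGGT was in 12 (14.0%), the E-box CAGCTG in 3 (13.0%), the T-box motif GGTGTGA in 3 (3.33%) and the AP-1 motif TGANTCA in 1 (6.75%). CAGCTG and TGANTCA read the same on both strands, and GGTGTGA can overlap CAGGTG or TGTGGT. These matches describe letters only.

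Cd3e had 1.20, 1.42 and 1.68 FPKM in Aim2 KO and 0.425, 0.889 and 0.302 FPKM in wild type, from 39, 51 and 53 reads in Aim2 KO and 15, 31 and 11 reads in wild type. All 3 Aim2 KO libraries lay above the highest wild type library, replicate 2. The ratio of means was 2.66 and the log2 difference with the 0.1 FPKM filter was 0.68 (SE 0.16, limma adjusted p = 0.957). Cd3d had 1.04, 0.454 and 1.10 FPKM in Aim2 KO and 0.277, 0.498 and 0.119 FPKM in wild type, and the groups overlapped because Aim2 KO replicate 2 lay below wild type replicate 2, without which the ratio of means was 4.37 instead of 2.90. Its pooled read rate was 2.87 times that of wild type. Its exact 95% binomial interval was 1.85 to 4.56, and all such intervals given here cover counting error only. Cd3g, the most abundant CD3 chain, had 2.47, 1.02 and 2.09 FPKM in Aim2 KO and 1.39, 1.25 and 1.08 FPKM in wild type. Here Aim2 KO replicate 2 was the lowest library of all 6, and the log2 difference of 0.32 (SE 0.21, limma adjusted p = 0.9998) did not pass. Cd247, the zeta chain that carries most of the signalling motifs, had 0.435, 0.135 and 0.616 FPKM in Aim2 KO and 0.248, 0.195 and 0.133 FPKM in wild type, again with Aim2 KO replicate 2 among the wild type values. Its reads are uncertain, since in GENCODE M21, whose model differs from the deposited one, it shares 3007 exonic bases with Pou2f1 on the opposite strand, and the sources used here do not say whether counting used strand.

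The constant regions of the receptor followed. Trac, the constant region of the alpha chain (chromosome 14, 54220521 to 54223097 as the deposited table gives it, without a stated build), had 2.04, 1.26 and 4.41 FPKM in Aim2 KO and 0.690, 0.499 and 0.286 FPKM in wild type. These levels came from 19, 13 and 40 reads in Aim2 KO and 7, 5 and 3 reads in wild type. The groups did not overlap, the ratio of means was 5.23 and it was 3.36 without Aim2 KO replicate 3, the highest library. On the log2 scale the difference was 1.17 (SE 0.31, limma adjusted p = 0.9998). Trbc1 and Trbc2 are the 2 constant regions of the beta chain, of which a T cell uses 1. Trbc1 had 1.13, 0.703 and 3.02 FPKM in Aim2 KO and 0.636, 0.483 and 0.462 FPKM in wild type and did not overlap between groups, with a ratio of means of 3.07 that was 1.74 without Aim2 KO replicate 3. Trbc2 had 9.71, 5.07 and 13.5 FPKM in Aim2 KO and 9.21, 9.09 and 10.3 FPKM in wild type, so that the wild type libraries lay inside the range of the Aim2 KO libraries. Its pooled read rate ratio was 0.970 (interval 0.834 to 1.13), from 335 reads in Aim2 KO and 369 in wild type. Per length, Trbc2 was thus above Trac in every library, and the excess was larger in wild type, where Trac rested on 3 to 7 reads.

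The coding sequences of Trbc1 and Trbc2 are close copies, which bears on how reads of one could be given to the other. Over 518 coding bases of GENCODE M21 (GRCm38) they were 95.56% identical, with 23 bases that differ. Exon 1, with 375 bases, held 1 difference, and the 143 bases after it held 22. Bases 261 to 518 of each are printed, 5′ to 3′ on the plus strand with introns removed, from the genes at chr6:41538218-41539662 and chr6:41546730-41548178, with the bases that differ in capitals.
Trbc1: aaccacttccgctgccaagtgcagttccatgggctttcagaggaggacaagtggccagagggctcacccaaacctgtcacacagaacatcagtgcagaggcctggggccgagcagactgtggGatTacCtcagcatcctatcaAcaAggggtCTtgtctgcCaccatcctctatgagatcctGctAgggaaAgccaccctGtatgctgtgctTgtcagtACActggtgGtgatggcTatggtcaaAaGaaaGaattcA
Trbc2: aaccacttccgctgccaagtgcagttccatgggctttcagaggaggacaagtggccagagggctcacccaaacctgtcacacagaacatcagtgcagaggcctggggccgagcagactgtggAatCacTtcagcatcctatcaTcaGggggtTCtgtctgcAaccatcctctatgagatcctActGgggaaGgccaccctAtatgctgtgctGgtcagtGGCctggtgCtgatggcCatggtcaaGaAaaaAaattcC
The longest stretch without a difference was 259 bases, and a read from within it would match both genes. How such reads were counted is not given in the sources used here, and the split of reads between the 2 genes is uncertain. The deposited Trbc1 ends at 41539347 and has 512 bases, so the last part of the printed Trbc1 sequence lies outside it. The ratio of Trbc1 to Trac was 0.552, 0.558 and 0.686 in Aim2 KO and 0.922, 0.968 and 1.61 in wild type, lower in each Aim2 KO library.

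The coreceptors and proximal kinases were low and, by group means, higher in Aim2 KO for all 5. Cd4, the coreceptor of helper and regulatory T cells that some dendritic cells also express, had 0.485, 0.463 and 1.22 FPKM in Aim2 KO and 0.249, 0.172 and 0.152 FPKM in wild type. Every Aim2 KO library lay above the wild type libraries. The ratio of means was 3.78, and 2.48 without Aim2 KO replicate 3. Cd8a and Cd8b1 encode the 2 chains of the coreceptor of cytotoxic T cells. Cd8a had 0.397, 0.205 and 0.407 FPKM in Aim2 KO and 0.0130, 0.263 and 0.176 FPKM in wild type, where wild type replicate 1 held 1 read and wild type replicate 2 lay above Aim2 KO replicate 2. Cd8b1 had 0.188, 0.169 and 0.771 FPKM in Aim2 KO and 0.0574, 0.349 and 0 FPKM in wild type, and 24 of its 36 Aim2 KO reads came from replicate 3, without which the ratio of means was 1.32 instead of 2.78. Of its 14 wild type reads 12 came from replicate 2, without which the ratio was 13.1. The groups overlapped for both CD8 chains with all libraries and did not overlap for either without wild type replicate 2, when the Cd8a ratio was 3.55 instead of 2.23. Lck, the kinase bound to CD4 and CD8, had 0.487, 0.439 and 1.35 FPKM in Aim2 KO and 0.168, 0.264 and 0.361 FPKM in wild type and did not overlap, with a ratio of means of 2.88 that was 1.75 without Aim2 KO replicate 3. Zap70, the kinase recruited to the phosphorylated CD3 and zeta chains, had 0.613, 0.392 and 1.02 FPKM in Aim2 KO and 0.290, 0.312 and 0.404 FPKM in wild type, with Aim2 KO replicate 2 just under wild type replicate 3.

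Among the accessory receptors 1 of 4 separated the groups. Cd2 (chromosome 3, 101275899 to 101287939), an adhesion receptor of T and NK cells, had 1.50, 1.84 and 3.48 FPKM in Aim2 KO and 0.212, 0.643 and 0.376 FPKM in wild type, from 39, 53 and 88 reads in Aim2 KO and 6, 18 and 11 reads in wild type. All 3 Aim2 KO libraries stood above the highest wild type library, replicate 2, and Aim2 KO replicate 3 was highest. The difference on the log2 scale was 1.18 (SE 0.24, limma adjusted p = 0.755), and the adjusted p ran from 0.0213 to 0.99996 over the fits made, with array quality weights the 1 fit that called it. The ratio of means was 5.54, and 4.07 without Aim2 KO replicate 3. Cd5, a receptor of T cells and some B cells that dampens signalling, had 5.17, 6.46 and 6.03 FPKM in Aim2 KO and 5.53, 6.33 and 5.12 FPKM in wild type. The groups overlapped fully, and with 849 and 868 reads the interval of the pooled read rate ratio was 0.949 to 1.15. The costimulatory receptors Cd28, at 0.336 to 0.617 FPKM over the 6 libraries, and Icos, at 0.280 to 0.927 FPKM, also overlapped, with ratios of means of 1.28 and 1.82.

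All 4 genes of the naive, memory and regulatory group separated the groups, though by different amounts. Il2ra, the high-affinity chain of the interleukin 2 receptor carried by regulatory and activated T cells, had 0.872, 0.796 and 1.01 FPKM in Aim2 KO and 0.359, 0.279 and 0.392 FPKM in wild type. The 3 Aim2 KO libraries were close together and well above the wild type libraries, at 0.892 ± 0.108 against 0.343 ± 0.0579 FPKM (mean ± SD, n = 3 per group). The log2 difference with the 0.1 FPKM filter was 0.49 (SE 0.10, limma adjusted p = 0.638). Foxp3 (chromosome X, 7579676 to 7595243), the factor that defines regulatory T cells, had 0.359, 0.0835 and 0.547 FPKM in Aim2 KO and 0.0743, 0.0645 and 0.0514 FPKM in wild type, from 31, 8 and 46 reads in Aim2 KO and 7, 6 and 5 reads in wild type. Aim2 KO replicate 2 lay only 1 read above wild type replicate 1, and the ratio of means of 5.20 was 4.97, 7.14 and 3.49 without Aim2 KO replicates 1, 2 and 3. In GENCODE M21 Foxp3 shares 853 exonic bases with Flicr on the same strand and 590 with Ccdc22 on the opposite strand, so some of these reads may belong to its neighbours. Il7r, the interleukin 7 receptor of naive and memory T cells and innate lymphoid cells, had 0.747, 0.985 and 1.79 FPKM in Aim2 KO and 0.495, 0.501 and 0.590 FPKM in wild type, with a ratio of means of 2.22. Tcf7, a transcription factor of naive and stem-like T cells, had 6.16, 5.51 and 6.84 FPKM in Aim2 KO and 5.15, 4.05 and 5.44 FPKM in wild type, so that the lowest Aim2 KO library was just above the highest wild type library. On the log2 scale it differed by 0.29 (SE 0.13, limma adjusted p = 0.9998), and the separation was lost under median-of-ratios scaling and under rescaling to TPM, which left the other 11 separated genes as they were. In FPKM Tcf7 was above each CD3 chain in every library, and the source of its reads was not tested.

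Of the granule genes, Gzmb gave the clearest separation. Gzmb (chromosome 14, 56258856 to 56262260 in the deposited table) encodes granzyme B, a serine protease that triggers cell death once perforin has let it into the target. The 250 bases before its RefSeq start, at chr14:56262335-56262584 on the minus strand of GRCm38.p6, are shown because Gzmb is the 1 gene of the 25 with the AP-1 motif TGANTCA, marked in capitals with its 2 TGTGGT motifs.
Gzmb: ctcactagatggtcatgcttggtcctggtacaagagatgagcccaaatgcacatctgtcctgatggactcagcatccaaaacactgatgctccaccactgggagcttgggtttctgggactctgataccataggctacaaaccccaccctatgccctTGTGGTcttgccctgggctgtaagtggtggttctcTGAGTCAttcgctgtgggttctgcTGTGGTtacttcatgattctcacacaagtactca
This window ends 74 bases before the start in the deposited table, so its strand could not be checked against the transcripts, as those of the CD3 genes were. Gzmb had 1.22, 0.875 and 1.38 FPKM in Aim2 KO and 0.172, 0.0581 and 0.278 FPKM in wild type, from 39, 31 and 43 reads in Aim2 KO and 6, 2 and 10 reads in wild type. The lowest Aim2 KO library stood well above the highest wild type library, and no Aim2 KO library stood apart. The means were 1.16 ± 0.259 against 0.169 ± 0.110 FPKM (n = 3 per group), a ratio of 6.84 that stayed at 6.18 without Aim2 KO replicate 3. Its log2 difference with the 0.1 FPKM filter was 0.88 (SE 0.13, limma adjusted p = 0.435), and the adjusted p was 0.435 to 0.647 over the 3 fits that tested it.

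The other 5 granule genes rested on fewer reads. Nkg7, a granule membrane protein, had 0.303, 1.28 and 1.61 FPKM in Aim2 KO and 0.185, 0.328 and 0.0898 FPKM in wild type, and Aim2 KO replicate 1, with 6 reads, lay below wild type replicate 2, with 7. Its ratio of means was 5.28. Prf1, which encodes perforin, had 12, 2 and 8 reads in Aim2 KO and 3, 4 and 1 reads in wild type. Gzma, granzyme A, had 3, 9 and 9 reads in Aim2 KO and 4, 1 and 3 reads in wild type. The groups overlapped for both, with read rate intervals of 1.26 to 7.63 and 1.19 to 7.32. Cst7, an inhibitor of granule cathepsins, had 1.17, 0.243 and 0.369 FPKM in Aim2 KO and 0.124, 0.167 and 0.440 FPKM in wild type, with Aim2 KO replicate 1 alone above the highest wild type library. Its ratio of means was 2.44, 1.26 without Aim2 KO replicate 1 and 4.09 without wild type replicate 3. Gzmk, granzyme K, had 0, 3 and 1 reads in Aim2 KO and 0, 0 and 0 reads in wild type, which is too few for a fold.

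**Figure D2:**
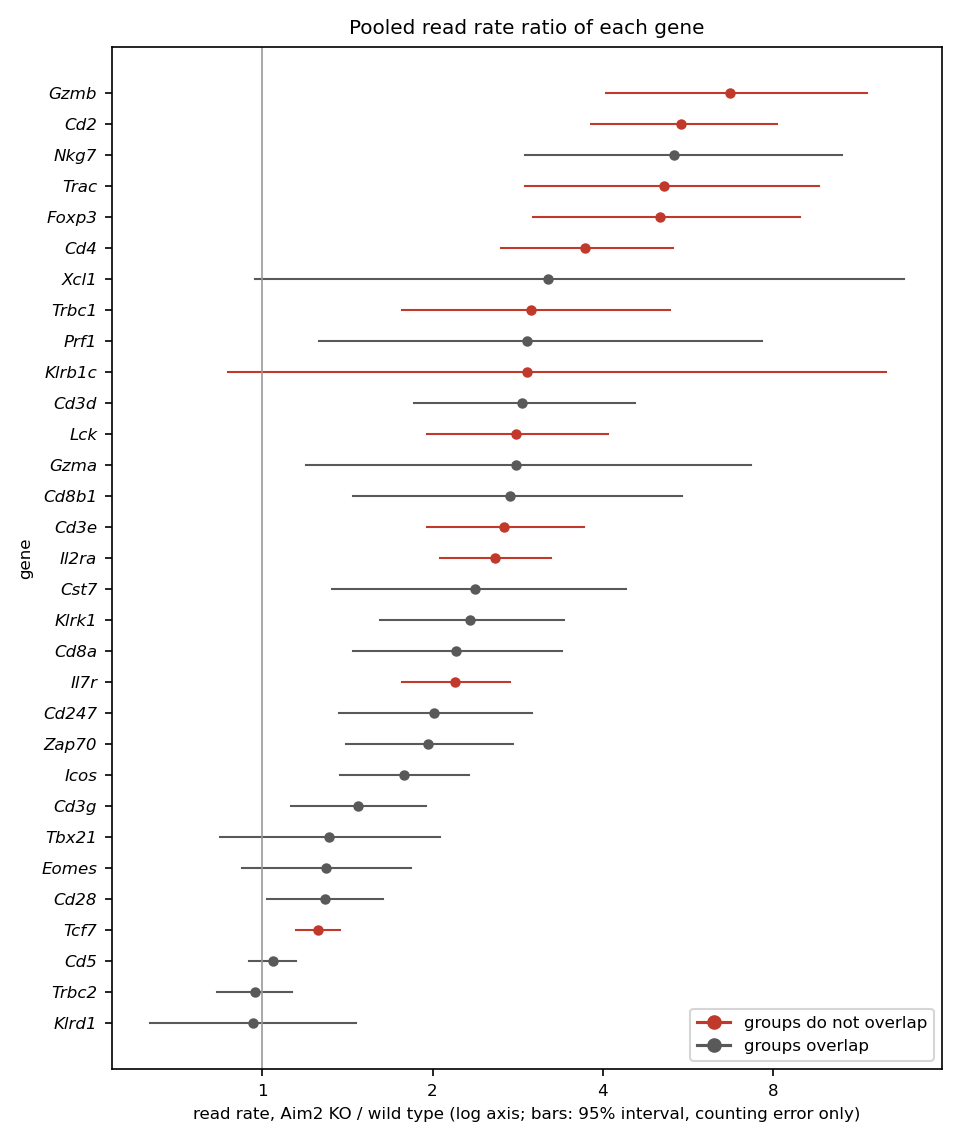
Ratio of the pooled read rate in Aim2 KO to that in wild type on a log axis, for the 31 genes with a finite ratio above 0, with exact 95% intervals for counting error and genes without overlap between groups in red. Gzmb (6.71) and Cd2 (5.49) are at the top, and Cd5, Trbc2 and Klrd1 lie close to the line of equal rates. The interval of Klrb1c crosses that line although its groups do not overlap.

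The NK cell receptors were a mixed set. Klrb1c, the NK1.1 antigen of some mouse strains, had 3, 4 and 4 reads in Aim2 KO and 2, 2 and 0 reads in wild type, so its groups did not overlap on 15 reads in all, and its interval of 0.870 to 12.6 included 1. In GENCODE M21 it shares 413 exonic bases with Gm44511 on the same strand, so these reads are uncertain. Ncr1, which encodes NKp46 and is the most specific NK cell gene of the 34, had 2 reads, both in Aim2 KO replicate 3. Klrd1 (CD94) was 0.290 to 0.991 FPKM, lowest in Aim2 KO replicate 1, with a ratio of means of 0.961, which was 1.25 without that library and 1.13 without wild type replicate 1. Klrk1 (NKG2D) was 0.115 to 0.897 FPKM with a ratio of 2.37, and 1.15 without Aim2 KO replicate 3. The cytotoxic lineage factors Eomes and Tbx21 (T-bet) overlapped between groups, with ratios of means of 1.26 and 1.28 and intervals of the read rate ratio of 0.923 to 1.83 and 0.844 to 2.06. The Eomes ratio was 0.747 without Aim2 KO replicate 2 and 0.916 without wild type replicate 2, and that of Tbx21 was 0.977 without wild type replicate 3. Fasl, the death ligand, was listed at 0 in all 3 Aim2 KO libraries and had 5 reads in wild type, with an upper bound of 1.17 for the read rate ratio. Xcl1, a chemokine of activated CD8 T and NK cells that draws dendritic cells, had 4, 2 and 6 reads in Aim2 KO and 1, 3 and 0 reads in wild type and overlapped.

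**Figure D3:**
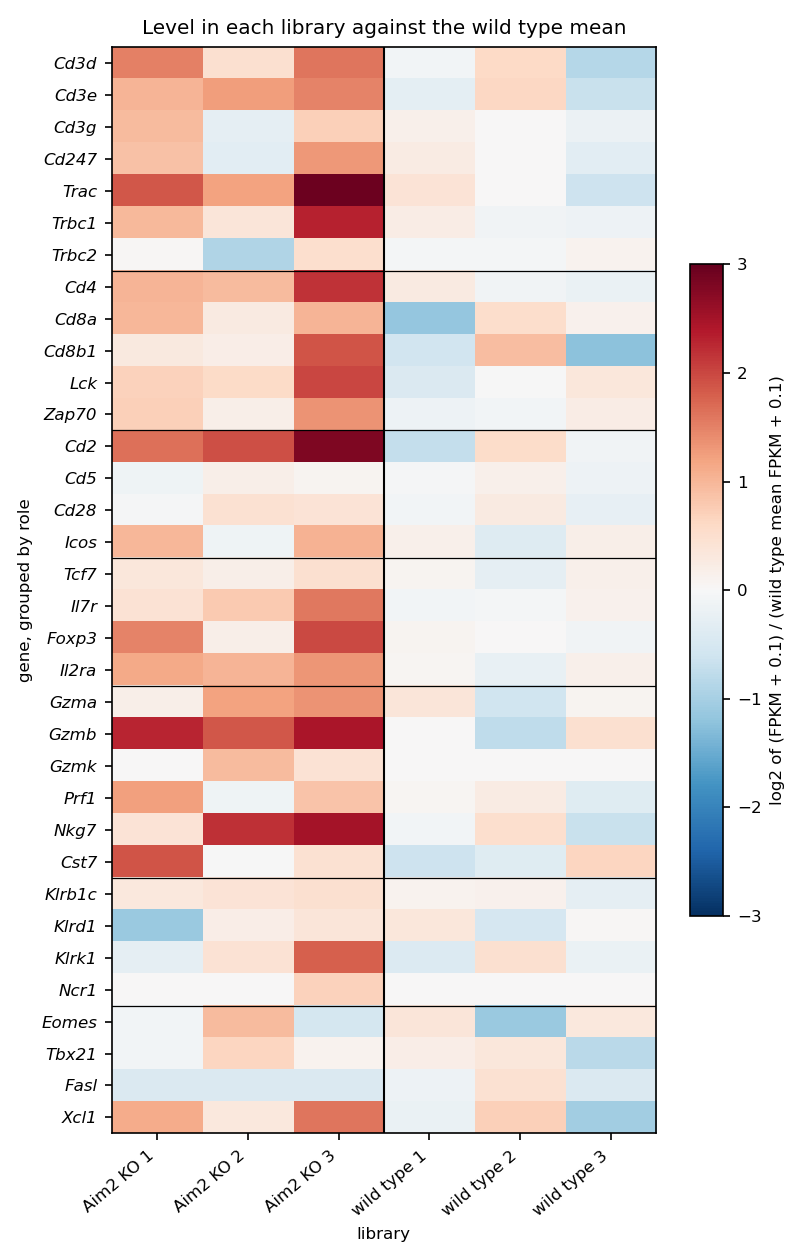
Colour gives log2 of (FPKM + 0.1) over (wild type mean FPKM + 0.1) for each gene (rows, by role) and library (columns), with red above and blue below the wild type mean. The column of Aim2 KO replicate 3 is red for most genes, and that of Aim2 KO replicate 2 is pale for Cd3g, Cd247, Cd8a and Foxp3.

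The level of the whole set differed between the Aim2 KO libraries. Replicate 3 had the highest value of all 6 libraries for 25 of the 34 genes, replicate 2 for 5 and replicate 1 for 3, and wild type replicate 2 for 1. Summed over all genes of the set the level was 40.6, 33.6 and 59.4 FPKM in Aim2 KO and 28.9, 29.1 and 28.8 FPKM in wild type. Most of the wild type sum came from Trbc2, Cd5 and Tcf7, and without them it was 19.6, 16.6 and 33.0 FPKM in Aim2 KO and 8.98, 9.65 and 7.97 FPKM in wild type. The number of genes higher without overlap was 16, 20 and 12 without Aim2 KO replicates 1, 2 and 3, and 13, 18 and 14 without wild type replicates 1, 2 and 3. The shares of all genes higher without overlap were 16.1%, 10.5% and 7.74%, and 8.19%, 7.96% and 10.3%, in the same comparisons of 2 libraries with 3. The median ratio of means over the set was 1.75 without Aim2 KO replicate 3 and 2.21 to 2.74 without any other library.

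General leukocyte markers were also higher in Aim2 KO by group means. Ptprc, the CD45 phosphatase of all leukocytes, had 1.58, 2.11 and 3.43 FPKM in Aim2 KO and 0.761, 1.04 and 1.18 FPKM in wild type, without overlap, and differed by 0.73 (SE 0.21, limma adjusted p = 0.9998) on the log2 scale. The 17 pan-leukocyte markers summed to 63.6, 65.7 and 91.0 FPKM in Aim2 KO and 36.5, 42.7 and 36.9 FPKM in wild type, and 12 of the 17 did not overlap (4.78% of all genes). Macrophage and monocyte markers summed to 68.2, 153 and 169 FPKM in Aim2 KO and 74.8, 92.3 and 90.9 FPKM in wild type, low in Aim2 KO replicate 1 and high in the other two. Skeletal muscle markers summed to 7438, 14493 and 13651 FPKM in Aim2 KO and 12652, 14886 and 12500 FPKM in wild type, lowest in Aim2 KO replicate 1. With the muscle level as a covariate limma called 0 of the 7 genes tested. The part of the leukocyte and macrophage differences in the values of the T cell genes was not tested. B cell markers were few: Pax5 was listed at 0 in all libraries, and the markers summed to 1.71, 4.14 and 4.81 FPKM in Aim2 KO and 1.12, 1.74 and 1.41 FPKM in wild type, mostly Ighm.

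Set against Ptprc in the same library, the CD3 chains, the granule genes, Cd2 and Trac were not alike. The 4 CD3 chains summed to 5.15, 3.03 and 5.49 FPKM in Aim2 KO and 2.34, 2.83 and 1.63 FPKM in wild type, without overlap, but their ratio to Ptprc was 3.26, 1.44 and 1.60 in Aim2 KO and 3.08, 2.72 and 1.39 in wild type, with the groups overlapping. The 6 granule genes summed to 3.10, 2.94 and 4.04 FPKM in Aim2 KO and 0.726, 0.681 and 0.961 FPKM in wild type, and their ratio to Ptprc was 1.96, 1.39 and 1.18 in Aim2 KO and 0.954, 0.654 and 0.816 in wild type, higher in each Aim2 KO library. Of these 6, Gzmb alone separated the groups in FPKM. The ratio of Cd2 to Ptprc was 0.948, 0.873 and 1.01 in Aim2 KO and 0.278, 0.618 and 0.319 in wild type, also without overlap. Cd2 had the smallest unadjusted p of the set in the main limma fit, so its ratio adds no separate evidence. Single genes of the set other than Cd2 and Trac were not set against Ptprc. The share of all genes whose ratio to Ptprc separates the groups was not computed. Trac over Ptprc was 1.29, 0.598 and 1.28 in Aim2 KO and 0.906, 0.479 and 0.243 in wild type and overlapped. With 3 libraries against 3, an exact permutation test of any such ratio cannot give a two-sided p below 0.1.

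**Figure D4:**
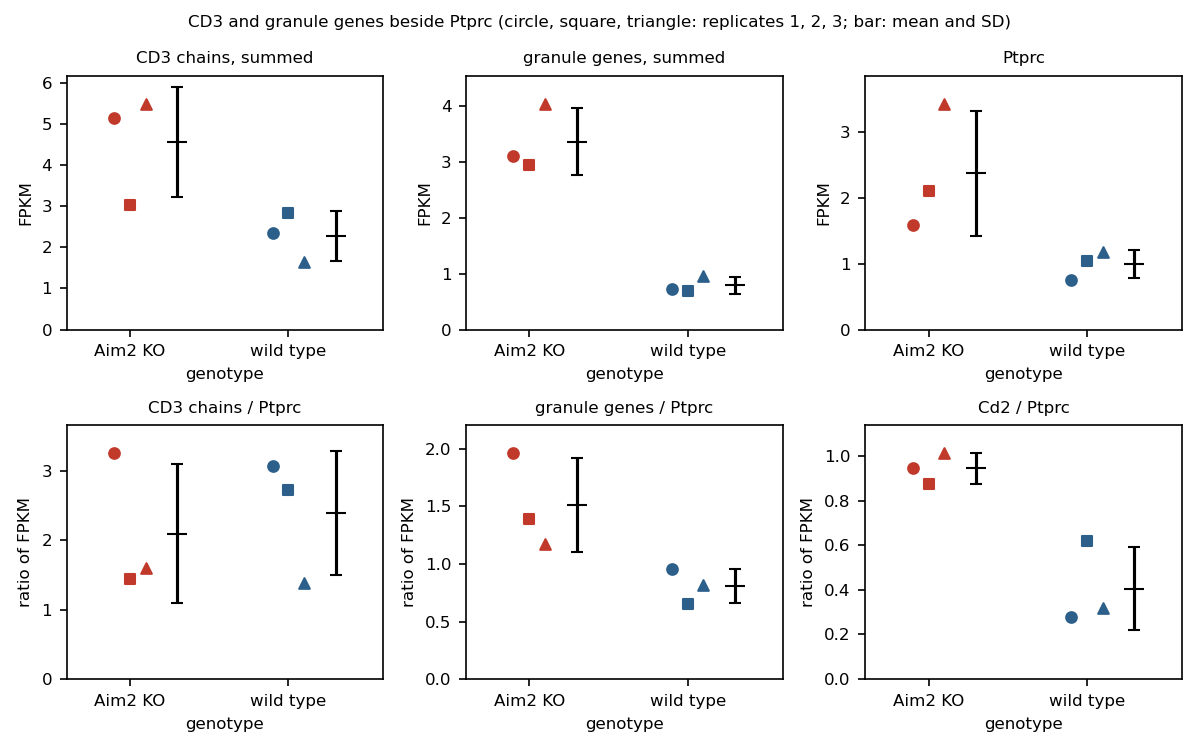
Upper row: FPKM of the summed CD3 chains, the summed granule genes and Ptprc. Lower row: CD3 chains, granule genes and Cd2 over Ptprc in the same library. Points are libraries and bars are mean and SD (n = 3). The CD3 ratio mixes between the groups, whereas every Aim2 KO library is above every wild type library for the granule and Cd2 ratios.

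Genes that act with the 34 were taken from 6 further lists, and limma called 0 genes of any of them, with the filter at either 1 or 0.1 FPKM. Of 29 genes of T cell receptor signalling, 12 averaged at least 1 FPKM, 8 of these with a positive log2 difference and 1 at an unadjusted p under 0.05. That gene was Lat, the adaptor that Zap70 phosphorylates, at 1.88 ± 0.710 against 0.700 ± 0.318 FPKM, a log2 difference of 0.75 (SE 0.22, limma adjusted p = 0.9998). Like Ccl5, Klrb1b, Itgb7 and Il17a below, it had a wild type mean under 1 FPKM and reached that filter only through the Aim2 KO libraries. Fyn, a kinase of the same family as Lck, was at 12.3 ± 1.01 against 11.1 ± 0.435 FPKM and overlapped. With the 0.1 FPKM filter 21 of 25 had a positive log2 difference and 8 did not overlap, beside backgrounds of 57.0% and 5.5% (2.04% for lower without overlap, 0 genes of the list), and the median log2 difference was 0.12, beside 0.02 over all genes.

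The list of checkpoint and activation receptors held 16 genes, not all of them receptors (Tox and Batf, for instance, are transcription factors). All 16 had a positive log2 difference with the 0.1 FPKM filter, 9 without overlap and 8 at an unadjusted p under 0.05. Their median was 0.32. The shares over all genes were 57.0%, 5.5% and 3.41%, and the median was 0.02. Pdcd1, Ctla4, Lag3 and Tnfrsf9 lay under 1 FPKM on average and were picked after their values were seen, all from the 9 without overlap. Others of the list, such as Tnfrsf18 and Ikzf2, overlapped, with ratios of means of 1.29 and 1.17. Pdcd1 (PD-1) had 0.851, 0.912 and 0.661 FPKM in Aim2 KO and 0.274, 0.384 and 0.449 FPKM in wild type. Ctla4, a receptor that competes with Cd28 for its ligands, had 0.551, 1.01 and 0.895 FPKM in Aim2 KO and 0.232, 0.320 and 0.306 FPKM in wild type. Lag3 had 0.532, 0.600 and 0.842 FPKM in Aim2 KO and 0.0813, 0.185 and 0.335 FPKM in wild type, and the groups did not overlap for any of these 3. Tnfrsf9 (4-1BB), a costimulatory receptor of activated T cells, had 1.45, 1.51 and 1.25 FPKM in Aim2 KO and 0.462, 0.331 and 0.354 FPKM in wild type, with the 3 Aim2 KO libraries close together and far above wild type.

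Among 35 further cytotoxic and NK cell genes in the table, 18 passed 0.1 FPKM, 16 of them with a positive log2 difference (57.0% of all genes) and 7 higher without overlap (5.5%), with a median log2 difference of 0.22. Ccl5, a chemokine of effector T and NK cells, had 0.996, 2.93 and 4.23 FPKM in Aim2 KO and 0.792, 0.617 and 0 FPKM in wild type, and Klrb1b, an NK receptor, had 1.51, 1.69 and 2.31 FPKM in Aim2 KO and 1.19, 0.832 and 0.902 FPKM in wild type, both without overlap. Serpinb9, the inhibitor that protects cells from granzyme B, was at 2.37 ± 0.592 against 1.49 ± 0.258 FPKM and overlapped. Gzmm, granzyme M, went the other way by group means, at 1.69 ± 0.685 against 1.98 ± 0.301 FPKM, and overlapped.

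The 20 genes of T cell trafficking and tissue residence had 18 genes past 0.1 FPKM, 15 with a positive log2 difference (57.0% of all genes) and 9 higher without overlap (5.5%), with a median of 0.27. Selplg, the ligand of P-selectin, was at 2.94 ± 0.694 against 1.24 ± 0.231 FPKM, a log2 difference of 0.80 (SE 0.16, limma adjusted p = 0.755). The integrin chain Itgb7, which pairs with Itgae in resident T cells, was at 1.56 ± 0.360 against 0.767 ± 0.151 FPKM. Cxcr4 was at 2.06 ± 0.323 against 1.33 ± 0.214 FPKM. The groups did not overlap for any of these 3. Of 18 lineage factors and helper cytokines, 12 passed 0.1 FPKM, 10 with a positive log2 difference and 2 higher without overlap, beside the same 57.0% and 5.5%, with a median of 0.13. The cytokine Il17a ranged widely, with 5.53, 0.752 and 0.817 FPKM in Aim2 KO and 1.81, 0.457 and 0.606 FPKM in wild type.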

How the data were processed

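Bulk RNA sequencing of tongue was compared between 3 Aim2 KO and 3 wild type libraries, with groups taken from the labelled genotype. The FPKM values were deposited by the authors, 1 column per library. The sources used here name no aligner, counter, strand setting or build. All 34 genes found are in GENCODE M21 and 17 have identical coordinates there. Multiplied by gene length and by the library total that the smallest steps give, every FPKM value falls within 0.01 of a whole number of reads, which gives read counts and their exact 95% binomial intervals (scipy 1.17.1).

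The test was limma 3.58.1 (R 4.3.3) on log2(FPKM + 1) with a trend, fitted to the 12144 genes averaging 1 FPKM or more, genotype as the only term, two-sided, Benjamini-Hochberg over all genes, threshold 0.05. Differences are on that scale, wild type subtracted from Aim2 KO, which understates changes of low genes. Alternatives were pseudocounts of 0.1 and 0.5, filters, scalings, array quality weights, no trend, voom on reads (at least 10 over the 6 libraries), a muscle covariate, the replicate block and leaving out each library. Members and lists were chosen with earlier results of these data known. Values in every library were to be given for members averaging 1 FPKM or more or without overlap, and for the CD3, coreceptor and granule members. Of the other lists, up to 4 genes with the smallest p were to be named, and 1 such gene is not reported here. Pdcd1, Ctla4, Lag3, Tnfrsf9, Tcrg-C1 and Cd6 fell outside this rule.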

Additional observations from a re-analysis of the deposited data

How the results depend on the processing

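Over 12144 genes limma called 1 gene in all. The number was 0 with the replicate block, after rescaling to TPM, and with the filter at 0.1 FPKM or none, 68 with array quality weights (65 higher, 3 lower), 14 with skeletal muscle as a covariate, and 0 to 14 leaving out each library, with 14 without Aim2 KO replicate 1. Of the genes of the set that each fit tested (4 to 8 at 1 FPKM, 30 at 0.1 FPKM, 34 unfiltered), 0 were called except with array quality weights, which tested 7 and called 1, Cd2 (log2 difference 1.57, limma adjusted p = 0.0213). The median log2 difference of the tested genes of the set was 0.32, 1.24 by voom over 31 genes (0.43 over the same 7), and 0.13 to 0.55 leaving out each library. At 0.13, without Aim2 KO replicate 3, only 4 of the 7 were tested. Trbc2, at -0.10, turned to 0.275 with array quality weights and ran from -0.38 to 0.25 leaving out each library, positive without Aim2 KO replicate 2. Cd5, at 0.05, ran from -0.01 to 0.12 leaving out each library, and was -0.0124 without Aim2 KO replicate 2 and -0.011 without wild type replicate 3. The cause was not tested. With the 0.1 FPKM filter, 11 genes were higher without overlap (5.5% of all genes). Leaving out each library, an alternative chosen after seeing the data, 11 to 19 were, beside 8.26% to 18.4% of all genes. The count was 19 without Aim2 KO replicate 2 (11.8% of all genes) and 17 without wild type replicate 2 (9.03%). The labels do not say that the replicate numbers pair the libraries, so the numbers were not taken as pairs. Same-numbered libraries correlated at 0.35, 0.46 and 0.03 in their deviations from the group means. Aim2 KO replicates 1 and 2 correlated best with the wild type library of their own number, and replicate 3 with wild type replicate 2. The replicate block left 0 of the set called. Reads limit the rare genes most: Gzmk, Klrb1c, Ncr1 and Fasl had 2 to 15 reads in all.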

Other observations

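The gamma delta T cell genes overlapped between the groups. Of 14 symbols listed, 9 were found. Those not found (Trgc1, Trgc2, Trgc4, Trgv5 and Trgv6) are other spellings of genes found as Tcrg-C1, Tcrg-C2, Tcrg-C4, Tcrg-V5 and Tcrg-V6. Of the 9 genes, 7 averaged at least 0.1 FPKM, 5 of them with a positive log2 difference (57.0% of all genes) and 0 without overlap (median 0.10, limma calls 0, unadjusted p under 0.05 in 0). Tcrg-C1, a constant region of the gamma chain, had 1.97, 0.463 and 0.967 FPKM in Aim2 KO and 0.628, 1.27 and 0.685 FPKM in wild type, highest in Aim2 KO replicate 1. Trdv4, a variable region of the delta chain used by resident T cells of stratified epithelia, had 2.70, 1.51 and 0.132 FPKM in Aim2 KO and 1.06, 2.03 and 2.74 FPKM in wild type. Aim2 KO replicate 3, with the highest Trac of all libraries, had the lowest Trdv4. Trdv4 may share reads with related variable segments.

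Cd5 and Cd6 are neighbouring genes that encode related receptors of T cells. Cd6 had 0.556, 0.409 and 0.631 FPKM in Aim2 KO and 0.242, 0.231 and 0.0780 FPKM in wild type, while Cd5 had 5.17, 6.46 and 6.03 FPKM in Aim2 KO and 5.53, 6.33 and 5.12 FPKM in wild type. In wild type libraries Cd5 was thus above each CD3 chain, in FPKM, whereas Cd6 was below Cd3g. The source of the Cd5 reads was not tested. The ratio of Cd4 to Cd8a was 1.22, 2.27 and 2.99 in Aim2 KO and 19.1, 0.655 and 0.863 in wild type, with the value of wild type replicate 1 resting on 1 read of Cd8a.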
